A study of Mus musculus with 5 samples.

Results

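The 9 genes described here encode receptor chains for interferons (Ifnar1, Ifnar2, Ifngr1, Ifngr2), Janus kinases (Jak1, Jak2, Tyk2) and Stat transcription factors (Stat2, Stat3). They were taken by name from a written list of interferon and cytokine signalling genes, and all 9 were found among 21887 protein-coding genes of the RefSeq annotation of build mm10 (GRCm38.p6). Their H3K36me3 peaks were read in mTEClo, medullary thymic epithelial cells sorted from the thymus of individual wild-type B6 mice as low for CD80. The 5 samples were 2 H3K36me3 ChIP libraries, one for series 1 and one for series 2, and 3 input libraries made without antibody, 2 for series 1 and 1 for series 2. All came from the same strain, genotype and cell type, with no treatment contrast and no age given, and which mouse gave which library is not stated. Technical and biological differences between the series therefore cannot be told apart, and with 1 ChIP library per series no difference between them has a replicate test.

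Interferons act through paired receptor chains. Type I interferons bind the chains encoded by Ifnar1 and Ifnar2, and interferon gamma binds those encoded by Ifngr1 and Ifngr2. The receptor tails carry Janus kinases, which phosphorylate each other, the receptor and then Stat proteins, and these enter the nucleus and bind gene promoters. Stat2 works in a complex with Irf9 downstream of type I and type III interferons, while Stat3 is the main effector of the interleukin-6 family and is needed in the thymus for a normal medullary epithelium. H3K36me3 is a histone mark laid down by Setd2 behind elongating RNA polymerase II, so it lies over the bodies of transcribed genes and is usually low at their starts.

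Each ChIP library came with a list of broad peaks called by the authors against input. Series 1 held 7231 peaks with a median width of 483 bp and series 2 held 10243 with a median width of 222 bp. No read counts come with the peaks, so the depth behind them is unknown. A gene with no peak fell short of the authors' calling threshold in that library and may still carry the mark. The score of a peak is the authors' own value, with a lowest value of 10 in both lists, and is used only within a list. Of 10 medullary epithelial marker genes, 3 had a peak in both series, namely Krt5, Itga6 and Lamb3, and 5 had none in either, including Epcam and Krt14. None of 9 thymocyte markers, 3 fibroblast markers or 3 endothelial markers had a peak in either series. Coding genes of like length were taken within a factor of 2 of a list's median. For thymocyte markers 8.56% of them were hit in series 1 and 10.2% in series 2. Cd3d, at 5.28 kb, is shorter than that window. Lck, Ptprc and Themis, at 25.3, 113 and 215 kb, are longer, so these shares are too low a background for them. In series 1 and 2, genes of like length were hit at 22.9% and 26% for fibroblast markers. For endothelial markers the shares were 25.3% and 28.7%. At such shares lists this small can hold no hit, so the absence of peaks says little about these cells, thymocytes included. For epithelial markers, genes of like length were hit at 12.2% in series 1, 13.5% in series 2 and 3.84% in both. None of the 3 epithelial markers hit in both lies in that window. Krt5, at 5.84 kb, is shorter. Lamb3 and Itga6, at 49.5 and 71.5 kb, are longer, so 3.84% is too low a background for them. Of 5 B cell markers 2, Cd79b and Pax5, were hit in series 2 and none in series 1. Genes of like length were hit at 5.46% in series 2 and 4.35% in series 1. Cd79b, at 3.22 kb, is shorter than that window and Pax5, at 186 kb, longer, so 5.46% is no background for them. Of 4 myeloid markers 1 was hit in each series, against 16.9% in series 1 and 18.9% in series 2. The part of other cells in the peaks described was not tested.

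A gene was counted as hit where a peak reached 1 bp or more into its span. Of the 9 genes, 4 were hit in series 1 and 8 in series 2. The 4 of series 1 were Ifnar1, Ifnar2, Jak2 and Stat3, and all 4 were also hit in series 2. Ifngr1, Jak1, Tyk2 and Stat2 were hit in series 2 alone, and Ifngr2 had no peak in either. The share hit was 44.4% in series 1 (exact binomial 95% interval 13.7 to 78.8%), against 16.3% of all protein-coding genes. In series 2 it was 88.9% (51.8 to 99.7%), against 19.5% of all protein-coding genes, and in both series 44.4% (13.7 to 78.8%), against 8.42%. Long genes are hit more often, and the median length was 27.3 kb for the 9 genes and 17.2 kb for all. Among the 8949 coding genes whose length lay between those of the shortest and longest of the 9, 24% were hit in series 1, 27.4% were hit in series 2 and 11.4% were hit in both. The genes were chosen with results of these libraries known, so these shares describe them and are not tested, and the intervals cover counting error only.

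These counts depended on the score and width asked of a peak. With a minimum score of 20, 3 of the 9 genes were hit in series 1 (10.9% of all coding genes), 3 in series 2 (9.01%) and 1, Ifnar2, in both (3.3%). With a minimum of 50, Ifnar1 alone was hit in series 1 (1.48% of all coding genes), and none in series 2 (0.763%) or in both (0.0868%). Peaks over 300 bp wide hit 2 of the 9 in series 1 (14.2% of all coding genes), 4 in series 2 (6.89%) and 2, Ifnar2 and Stat3, in both (3.38%). When a minimum of 1% of the span had to be covered, 3 were hit in series 1 (9.12%), 5 in series 2 (7.1%) and 3 in both (2.28%). Counts of 4, 8 and 4 were unchanged when the peak's midpoint had to lie in the span, when spans were extended by 2 kb, and when peaks touching another coding gene were left out. Over all coding genes those rules gave 16.2, 17.1 and 15.9% in series 1, 19.4, 20.9 and 18.9% in series 2, and 8.39, 8.81 and 8.2% in both.

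**Figure D1:**
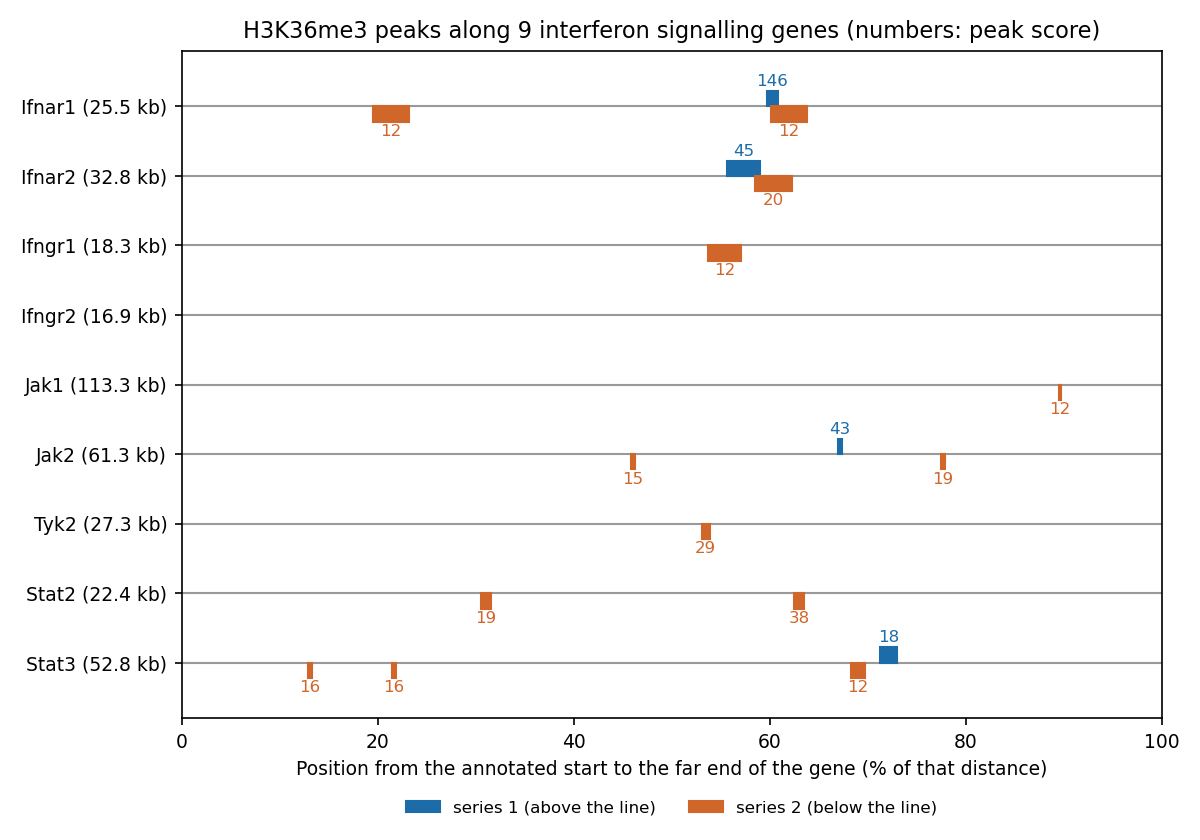
Peaks along the 9 genes, drawn to scale from the annotated start (0%) to the far end of the gene (100%), with series 1 above each line in blue and series 2 below it in orange, and the score beside each peak. All 4 series 1 peaks lie between 57.3 and 72.1%, no peak of either series lies in the first 10% of a gene, and only in Ifnar1 and Ifnar2 do blue and orange boxes share bases.

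The 9 genes held 4 peaks in series 1 and 13 in series 2, and none touched a second annotated gene of any kind. All 4 series 1 peaks had their midpoint in the second 50% of the gene, at 57.3 to 72.1% of the distance from the start, where 60.4% of the peaks of all coding genes lay in series 1. Positions over all coding genes cover the 4138 pairs of a gene and a peak in series 1, and 5204 in series 2, whose gene has a start in the promoter table used. Of the 13 series 2 peaks 8 lay in the second 50%, against 57.7% over the placed pairs of series 2, and the 13 spread from 13.1 to 89.6%. No peak had its midpoint in the first 10% of a gene. Over all coding genes 4.66% of the placed pairs of series 1 and 5.15% of those of series 2 did. Exons and introns were not resolved with the annotation used here.

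Peaks at gene starts were rare in both lists, and the 9 genes did not stand apart in this. None of the 9 promoter windows, from 250 bases before the annotated start to 50 bases after it, held a peak in either series, and of 32851 such windows of all RefSeq genes 0.0487% did in series 1 and 0.0822% in series 2. The 250 bases before the start of 4 of the genes are printed as sequence context for the pathway, in which interferon-activated factors bind promoters, 2 of them hit in both series (Ifnar2, Jak2), 1 in series 2 (Stat2) and 1 in neither (Ifngr2). They were taken from RefSeq on GRCm38.p6, from genes whose annotated start is also the outer end of their span. All 4 lie on the plus strand, 5′ to 3′, at chr16:91372533-91372782 (Ifnar2), chr19:29251553-29251802 (Jak2), chr10:128270248-128270497 (Stat2) and chr16:91546809-91547058 (Ifngr2). Capitals mark letters that match the interferon-stimulated response element (GAAANNGAAA), the Stat-binding gamma-activated site (TTCNNNGAA) or the GC box (GGGCGG), each on either strand.
Ifnar2: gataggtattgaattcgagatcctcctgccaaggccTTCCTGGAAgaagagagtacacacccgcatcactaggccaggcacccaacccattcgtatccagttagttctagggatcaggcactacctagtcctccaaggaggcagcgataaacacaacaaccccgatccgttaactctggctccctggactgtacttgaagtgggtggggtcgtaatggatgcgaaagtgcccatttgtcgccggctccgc
Jak2: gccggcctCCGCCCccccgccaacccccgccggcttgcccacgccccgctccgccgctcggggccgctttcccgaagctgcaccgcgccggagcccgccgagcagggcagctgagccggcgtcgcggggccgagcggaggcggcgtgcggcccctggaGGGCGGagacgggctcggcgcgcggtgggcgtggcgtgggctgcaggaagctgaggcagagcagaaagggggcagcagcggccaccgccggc
Stat2: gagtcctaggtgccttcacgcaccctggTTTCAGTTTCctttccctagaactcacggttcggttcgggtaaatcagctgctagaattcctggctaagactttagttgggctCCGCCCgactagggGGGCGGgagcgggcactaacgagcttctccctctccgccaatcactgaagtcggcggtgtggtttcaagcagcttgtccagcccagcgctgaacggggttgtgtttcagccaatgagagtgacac
Ifngr2: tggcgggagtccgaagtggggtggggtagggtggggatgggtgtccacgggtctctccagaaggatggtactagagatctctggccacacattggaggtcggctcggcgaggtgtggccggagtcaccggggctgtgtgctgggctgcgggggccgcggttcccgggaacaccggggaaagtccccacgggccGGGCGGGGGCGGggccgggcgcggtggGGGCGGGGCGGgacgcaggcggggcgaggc

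Stat2 was the only one of the 9 with the response element letters, beginning 222 bases before its start on the reverse strand, and 2.98% of the 32851 windows hold them. Ifnar2 was the only one with the gamma-activated letters, beginning 214 bases before its start, against 7.02% of windows. Every one of the 9 except Ifnar2 had the GC box letters, against 32.7% of windows. Ifngr2 had 4 copies in 2 runs, and the copies of the run nearer the start overlap by 1 base. G and C made up 80.8% of the Jak2 window, 74% of that of Ifngr2, 56.8% of that of Stat2 and 54% of that of Ifnar2, against a median of 52.4% over all windows. These are matches of letters, and nothing about the binding of a factor was measured.

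Among the receptor chains, both chains of the type I interferon receptor carried peaks in both series, and in each gene the peaks of the series shared bases. Ifnar1, on chromosome 16 from 91485032 to 91510523, encodes the chain whose tail holds Tyk2. In series 1 it had 1 peak, of 298 bp, from 91500318 to 91500615, with a score of 146. In series 2 it had 2, from 91490155 to 91491084 and from 91500435 to 91501354, each with a score of 12. The series 1 peak is short and high and the series 2 peaks are wide and low, yet the peaks near 15.3 and 15.7 kb from the start shared 181 bp. The series 1 score was equalled or passed by only 0.207% of the list, while 98.1% of the series 2 list scored 12 or more. Covered shares were 1.17% of the span in series 1 and 7.26% in series 2, a mean of 4.21% ± 4.31 (SD, n = 2), so the spread was as large as the mean.

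Ifnar2, on chromosome 16 from 91372783 to 91405589, encodes the chain that binds type I interferons most tightly and carries Jak1. It had 1 peak of 1118 bp in series 1, from 91391037 to 91392154, with a score of 45, and 1 of 1229 bp in series 2, from 91391983 to 91393211, with a score of 20. The peaks overlapped by 172 bp and covered 3.41% and 3.75% of the span in series 1 and 2, a mean of 3.58% ± 0.239 (SD, n = 2). Among the 4 genes hit in both series Ifnar2 had the smallest spread relative to its mean. Both peaks were wide for their lists, since 8.71% of series 1 peaks and 1.24% of series 2 peaks were at least as wide. Of coding genes within a factor of 2 of its length 8.85% were hit in both series, and 7.00% of those near Ifnar1 in length.

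Of the interferon gamma receptor chains, Ifngr1 was hit in series 2 alone and Ifngr2 in neither series. Ifngr1, the ligand-binding chain on chromosome 10 from 19591949 to 19610229, had no peak in series 1 and 1 of 621 bp in series 2, from 19601768 to 19602388. That peak had a score of 12 and covered 3.40% of the span. Ifngr2, the signalling chain that carries Jak2, lies on chromosome 16 from 91547059 to 91564007 and had no peak in either series. At 16.9 kb it is the shortest of the 9 genes, and of coding genes within a factor of 2 of its length 13.3% were hit in series 1 and 14.6% in series 2. A hit in both series was found in 4.38% of those genes and in 4.91% of those near Ifngr1 in length.

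**Figure D2:**
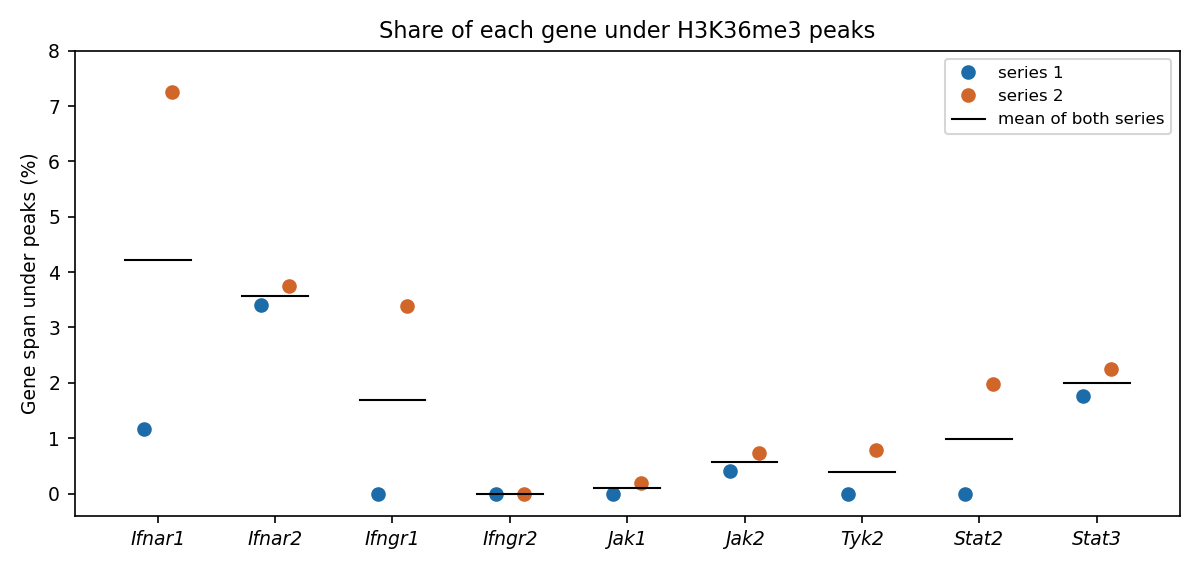
Percent of each gene's span under peaks, with 1 point for each series and a bar at the mean of both. Ifnar1 ranges from 1.17 to 7.26%, Ifnar2, Jak2 and Stat3 have points close together, and Ifngr1, Jak1, Tyk2 and Stat2 are at 0 in series 1.

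Among the kinases, Jak2 alone was hit in both series. Jak2, on chromosome 19 from 29251803 to 29313095, serves the interferon gamma receptor and many cytokine and hormone receptors. It had 1 peak of 253 bp in series 1, from 29292847 to 29293099, with a score of 43, which 9.76% of that list reached. In series 2 it had 2 peaks, from 29279908 to 29280127 with a score of 15 and from 29299312 to 29299537 with a score of 19. None of the 3 shared bases with the other series, and the closest pair was 6.21 kb apart. The covered share was 0.413% in series 1 and 0.728% in series 2, a mean of 0.570% ± 0.223 (SD, n = 2). Of coding genes within a factor of 2 of its 61.3 kb, 15.5% were hit in both series.

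Jak1, the kinase used by both interferon receptor types and by the interleukin-6 family, is the longest of the 9 genes. It lies on chromosome 4 from 101151974 to 101265282 and overlaps the span of Raver2 by 397 bp. It had no peak in series 1 and 1 of 217 bp in series 2, from 101163617 to 101163833, with a score of 12. This peak lay 101 kb from the Jak1 start, outside the overlap, and covered 0.192% of the gene. Of coding genes of like length (within a factor of 2) 37.0% were hit in series 1 and 45.0% in series 2.

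Tyk2, the kinase of the Ifnar1 chain, on chromosome 9 from 21104068 to 21131393, likewise had no peak in series 1. Its series 2 peak, from 21116623 to 21116838, was 216 bp wide, the narrowest width in that list, and covered 0.790% of the gene. Its score of 29 was reached by 13.5% of the list, so it ranked higher there than any series 2 peak of the other kinases.

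Stat3, on chromosome 11 from 100886806 to 100939594, is transcribed from the minus strand. In series 1 it had 1 peak of 928 bp, from 100901056 to 100901983, with a score of 18. In series 2 it had 3, the widest of 743 bp from 100902799 to 100903541 with a score of 12. The others, of 218 and 223 bp with a score of 16 each, lay 11.4 and 6.88 kb from the start. The series 1 peak and the widest series 2 peak, 38.0 and 36.4 kb from the start, shared no base and were 815 bp apart. Covered shares of 1.76% and 2.24% gave a mean of 2.00% ± 0.343 (SD, n = 2), and 13.6% of coding genes near its length were hit in both series.

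Stat2, on chromosome 10 from 128270498 to 128292853, is part of the interferon-activated complex that holds Irf9. It had no peak in series 1. In series 2 it had 2, from 128277333 to 128277552 with a score of 19 and from 128284468 to 128284690 with a score of 38, together over 1.98% of the gene. The score of 38 was the highest of the 13 member peaks in series 2 and was reached by 6.08% of the list. The first 753 bp of the Stat2 span overlap Apof, and neither peak lay there.

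**Figure D3:**
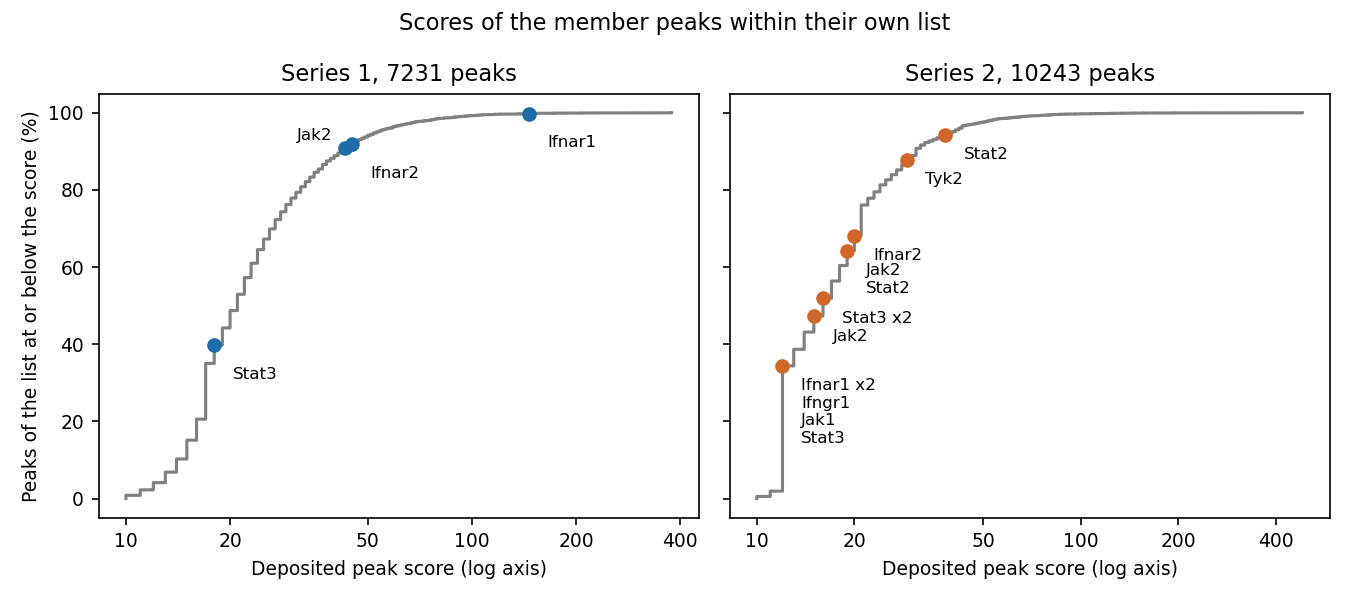
Cumulative distribution of the deposited peak score in each list (grey line, log score axis, percent of peaks at or below the score), with the peaks of the 9 genes as points. Ifnar1 stands near the top of series 1 at 146, while 5 of the 13 series 2 peaks sit at 12, the score of 32.5% of that list.

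The order of genes by score differed between the series. In series 1 it ran Ifnar1 (146), Ifnar2 (45), Jak2 (43) and Stat3 (18), where the list median was 21. In series 2 the highest scores belonged to Stat2 (38), Tyk2 (29) and Ifnar2 (20), where the list median was 16, and Ifnar1, Ifngr1 and Jak1 stood at 12. By mean covered share the order was Ifnar1, Ifnar2, Stat3, Ifngr1, Stat2, Jak2, Tyk2, Jak1 and Ifngr2. Of the 8 steps between neighbours in that order, 1 exceeded the larger SD of its pair, that of 1.58 percentage points between Ifnar2 and Stat3. The order depended on the score asked of a peak. With a minimum score of 20 the mean covered share was 0.584% for Ifnar1, 3.58% for Ifnar2 and 0 for Stat3, so Ifnar2 then stood above Ifnar1. The median over the 9 genes of the mean covered share was 0.991%. Over all coding genes it was 0, which follows from most of them having no peak. By series the median of the 9 was 0 in series 1 and 1.98% in series 2. For the mean covered share it was 0.206% with a minimum score of 20, and 0 with a minimum of 50 or with only peaks over 300 bp wide. Among the 1843 coding genes hit in both series, 7.76% were covered at least as much as Ifnar1 on average, 10.2% as Ifnar2, 24.6% as Stat3 and 62.6% as Jak2.

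Peaks of the series shared bases within 2 of the 4 genes hit in both. Over all 1843 genes hit in both this held for 17.6%. Of the 5151 series 1 peaks in coding genes, 340 (6.60%) touched a series 2 peak, and those of Ifnar1 and Ifnar2 were among them.

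Several of the genes lie in clusters of relatives, and the neighbours differed in their peaks. Ifnar2, Il10rb, Ifnar1 and Ifngr2 follow each other along 191 kb of chromosome 16, from 91372783 to 91564007. Il10rb encodes a chain shared by the receptors for interleukin-10 and type III interferons. All 2 series 1 peaks and 3 series 2 peaks of this stretch lay in Ifnar2 or Ifnar1, and none lay in Il10rb, Ifngr2 or between the genes. Il10rb lies 567 bp from Ifnar2, and Ifnar1 and Ifngr2 are 36535 bp apart. The nearest coding neighbours of the genes outside clusters were Il22ra2, 11798 bp from Ifngr1, Insl6, 8258 bp from Jak2, and Cdc37, 8037 bp from Tyk2, while Tmem50b was the nearest to Ifngr2, at 10500 bp. The other cluster, Stat5b, Stat5a and Stat3, takes up 159 kb of chromosome 11, from 100780731 to 100939594, and each of its 3 genes was hit in both series. It held 4 peaks in series 1 and 6 in series 2. None lay outside the genes, but they fill nearly all of the stretch, with 1636 bp between Stat5a and Stat3, so this could hardly come out otherwise.

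**Figure D4:**
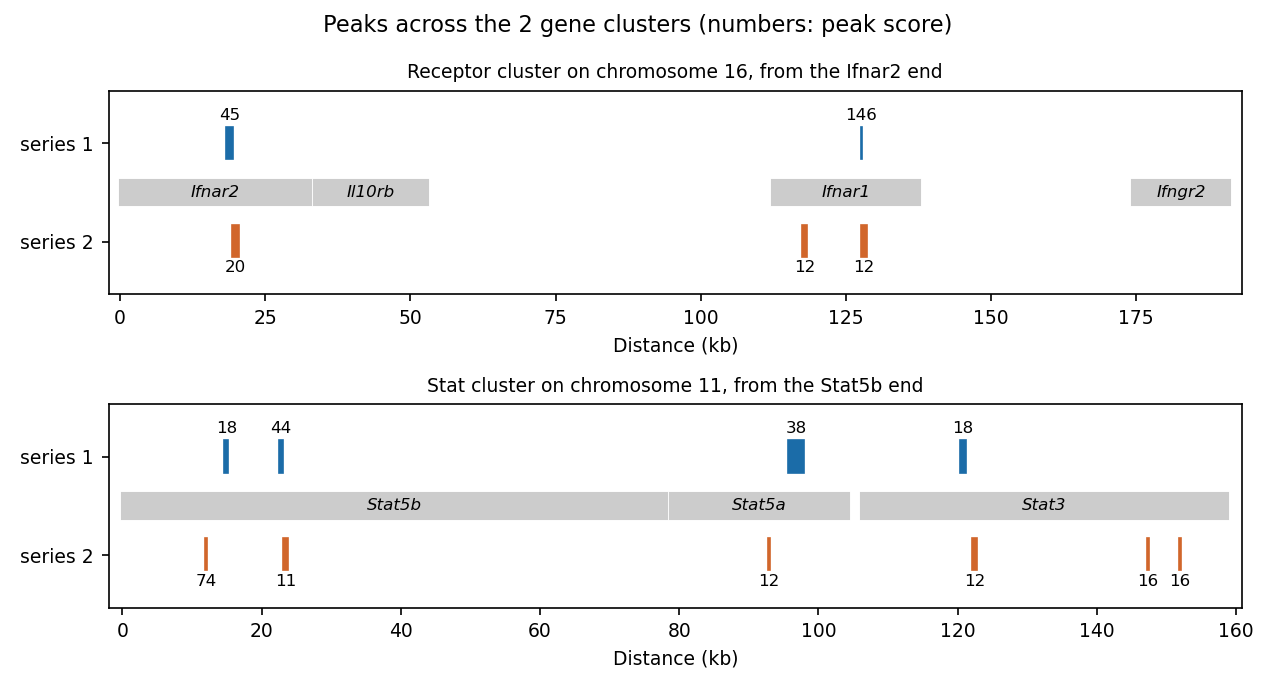
Peaks across the receptor cluster of chromosome 16 and the Stat cluster of chromosome 11, with genes as grey boxes, series 1 peaks above in blue, series 2 peaks below in orange, and distance in kb from the left end of each cluster. Ifnar2 and Ifnar1 hold all peaks of the upper cluster, and Stat5b, Stat5a and Stat3 each hold peaks of both series.

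Within the Stat cluster, Stat5a, which relays prolactin, growth hormone and interleukin-2 family signals, had 8.72% of its span under 1 peak of 2252 bp in series 1 and 0.860% under 1 peak of 222 bp in series 2. Stat5b, its close relative, had 2 peaks per series, covering 1.50% (series 1) and 1.27% (series 2) of the gene, and a peak of each series met over 6 bp. Elsewhere in the family, Stat2 and Stat6 were hit in series 2 alone, and Stat4, which acts downstream of interleukin-12, in neither. Of the 4 Janus kinases Jak2 alone was hit in both, and Jak3, which serves the common gamma chain, in neither. Over all coding genes 8.42% were hit in both. Why some family members had no peak was not tested.

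The other genes of the pathway were counted in written lists. Of 8 partner genes 3 were hit in each series and 2, Stat5a and Stat5b, in both (37.5% in each and 25% in both). Among coding genes within a factor of 2 of the list's median length 15.5% were hit in series 1, 17.1% in series 2 and 5.51% in both. Stat5b, at 78.3 kb, is longer than that window, so 5.51% is too low a background for it. Stat6, which answers interleukin-4, had 1.20% of its span under a series 2 peak, and Ifnlr1, the specific chain of the type III interferon receptor, 1.29% under a series 1 peak. Jak3, Stat4, Irf9 and Il10rb had none in either series.

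Of 17 inhibitor genes 6 were hit in series 1, 3 in series 2 and 2 in both. The shares of this list were 35.3%, 17.6% and 11.8%, against 16.3%, 19.5% and 8.42% of all coding genes. Among coding genes within a factor of 2 of its median length they were 19.4%, 21.6% and 7.88%. In series 2 and in both the list lay near the background. Pias2, Ptpn2 and Ptpn11, at 90.5, 59.1 and 60.9 kb, are longer than that window, so its shares are too low for them. Usp18, which strips Isg15 from proteins and blocks signalling at Ifnar2, had 3 peaks over 12.4% of its span in series 1 and 1 over 0.900% in series 2. A non-coding gene, Gm44148, touches 2 of the series 1 peaks and that of series 2. Pias2, a SUMO ligase that acts on Stat proteins, had 1.16% and 0.246% in series 1 and 2. Ptpn2, a phosphatase of Janus kinases and Stats, had 2.83% under 2 series 1 peaks, Socs6 2.70%, Socs7 2.46% and the phosphatase gene Ptpn11 2.10% under 1 each, and none of the 4 was hit in series 2. The feedback inhibitors Socs1, Socs2, Socs3 and Cish had no peak in either, nor had Socs4, Socs5, Ptpn6, Pias1, Pias3 and Pias4. Socs1, Socs3 and Cish are short, at 1.73, 4.26 and 6.13 kb, and short genes are hit less often.

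Of 20 receptor genes for other cytokines that signal through Janus kinases 5 were hit in series 1, 9 in series 2 and 4 in both. These shares were 25%, 45% and 20%. Among coding genes within a factor of 2 of the list's median length they were 19.3%, 21.5% and 7.77%. Of the 4 hit in both, only Il15ra lies within that window. Lifr, Osmr and Il13ra1, at 107, 61.4 and 59.2 kb, are longer, so 7.77% is too low a background for them. Lifr, the leukaemia inhibitory factor receptor, had 4 peaks covering 3.35% of the gene in series 1 and 5 covering 2.19% in series 2. Osmr, the oncostatin M receptor, had 5.49% and 0.371% covered in series 1 and 2. Il15ra had 4.92% and 2.38%, and Il13ra1, where the non-coding Gm42406 shares the series 1 peak, 0.639% and 0.412%. Il20rb, a chain of interleukin-20 family receptors, had 3 peaks over 13.0% of its span in series 2 and none in series 1. Il6st, which encodes gp130, the chain through which the interleukin-6 family reaches Stat3, had 1 series 2 peak over 2.29% and none in series 1. Il22ra1 had 0.797% in series 2 alone, and Il4ra 2.03% in series 1 alone.

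None of 11 ligand genes, among them Ifnb1, Ifng, Il6 and Lif, had a peak in either series. They are short, with a median of 1.97 kb, and of coding genes within a factor of 2 of that length 0.418% were hit in series 1 and 1.14% in series 2. Of 29 interferon-induced genes 13 were hit in series 1, 11 in series 2 and 8 in both (27.6%). Over all coding genes 16.3% were hit in series 1, 19.5% in series 2 and 8.42% in both. The median length of the induced genes was 13.2 kb, and of coding genes within a factor of 2 of it 10.6% were hit in series 1, 12% in series 2 and 3.25% in both. That window does not span the list, which runs from 1.40 kb (Isg15) to 92.9 kb (Nlrc5). Of the 8 hit in both, only Oas3 and Tap1 lie within it and the others are longer, so 3.25% is too low a background for them. Mx1 and Mx2, also on the written list, are annotated as transcribed pseudogenes in this reference and were not counted.

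**Figure D5:**
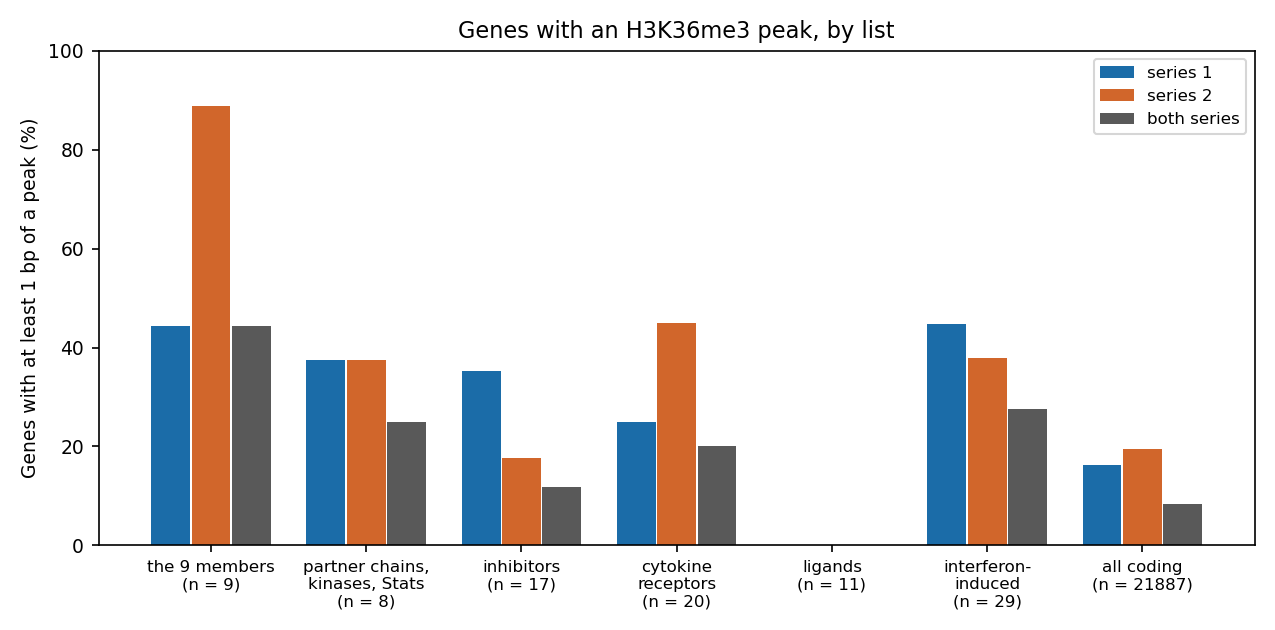
Percent of genes hit in series 1 (blue), in series 2 (orange) and in both (grey), by the 1 bp rule, for the 9 genes, 5 lists of the pathway and all 21887 coding genes. The ligand genes are at 0 in each, and the interferon-induced genes reach 44.8%, 37.9% and 27.6%.

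The 8 induced genes hit in both series include sensors and effectors of antiviral defence and of antigen presentation. Of the 29 induced genes 13 had no peak in either series, and these include genes of the same kinds. Among them were B2m, Psmb8, Psmb9, Isg15, Ifit1, Ifit3 and Bst2, which are short, from 1.40 kb (Isg15) to 9.12 kb (Ifit1). Tap1, the peptide transporter of MHC class I loading, was covered over 3.57% in series 1 and 3.26% in series 2, by peaks that shared 293 bp. Oas3, an oligoadenylate synthetase, had 1.46% and 4.12%, and its series 1 peak, with a score of 81, lay wholly within that of series 2 over 360 bp. Eif2ak2, the kinase PKR, had 2.91% and 6.52%, and the RNA helicase genes Ddx58 and Ifih1, sensors of viral RNA, had 0.641% and 4.26% and 3.31% and 0.446%. Parp14, an ADP-ribosyltransferase, had 1.73% and 1.16%. Nlrc5, the transactivator of MHC class I genes, had 1 peak covering 0.595% in series 1 and 6 covering 2.37% in series 2, 1 of which also touches the non-coding Gm51584. Ciita, its counterpart for class II, had 1.00% and 1.18%, under peaks that also touch the non-coding LOC115488669. Genes hit in 1 series with the largest covered share were Dtx3l, with 21.7% under 3 series 1 peaks, Irf1, with 16.4% under 1 series 1 peak, Rsad2, with 4.26% in series 2, and Samhd1, with 3.71% in series 1.

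The coding genes most like each of the 4 genes hit in both series were sought among the other 1842 hit in both, by the distance between covered shares in series 1 and 2. For Ifnar1 they were Eif4e2, with 1.32% and 7.68%, and Zfp35, with 1.64% and 8.70% (0.450 and 1.52 percentage points away). For Ifnar2 they were Pdcd11, with 3.39% and 4.04%, and Oasl2, with 3.34% and 3.45% (0.293 and 0.300). Mib1 and Parn were nearest Jak2 (0.0174 and 0.0425), and Eprs and Add1 nearest Stat3 (0.0680 and 0.0745). Likeness here rests on 2 libraries and 1 measure.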

How the data were processed

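H3K36me3 ChIP and input libraries of mTEClo are as described in the report, and the groups come from the sample titles. The submitters' processing notes name Bowtie2, SAMtools, MACS2 and build mm10. Versions and settings were not given in any source used here. The names of the deposited peaks show calling per ChIP library, with 2 inputs behind series 1 and 1 behind series 2. The authors deposited a whole-number score for each peak, whose meaning is not stated. The lists are not normalized to each other.

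Peaks were joined to gene spans of RefSeq GRCm38.p6 on chromosomes 1 to 19, X and Y by an overlap of at least 1 bp, and the covered share is the percent of the span under peaks. Starts and strands came from the RefSeq promoter table. Where a gene had several entries there, the one listed first was used. Named genes are the 9, every list gene hit in both series, up to 4 list genes per list hit in 1 series with the largest covered share, the 2 genes most alike, nearest coding neighbours and genes sharing a peak. Other genes named for having no peak were picked after their values were seen. One gene of the written lists is not reported here. The members and lists were chosen with earlier results of these data known. No test was run, because there is 1 group of ChIP libraries. The overlap step was tested on simulated data, recovering 200 of 200 peaks placed in known genes. Alternatives were score and width thresholds, other overlap rules, wider spans, peaks in overlapping genes left out, and each replicate left out. Python 3.11.15, numpy 2.4.6, pandas 2.3.3, scipy 1.17.1 and matplotlib 3.10.9 were used.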

Additional observations from a re-analysis of the deposited data

How the results depend on the processing

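With a minimum score of 20, 3 of the 9 genes were hit in series 1, 3 in series 2 and 1 (Ifnar2) in both, and 6 of the 85 pathway genes in both, against 4, 8, 4 and 16 with all peaks. With a minimum of 50, 1 was hit in series 1 (Ifnar1), 0 in series 2 and 0 in both, and 0 pathway genes in both. With peaks wider than 300 bp, 2 were hit in series 1, 4 in series 2 and 2 in both (Ifnar2 and Stat3), and 8 pathway genes in both. Over all coding genes the shares hit in series 1, series 2 and both were 16.3, 19.5 and 8.42% with all peaks. They were 10.9, 9.01 and 3.3% with a minimum score of 20, and 1.48, 0.763 and 0.0868% with a minimum of 50. With peaks wider than 300 bp they were 14.2, 6.89 and 3.38%. With at least 1% of the span covered, 5 were hit in series 2, against 7.1% of all coding genes. The counts of 4, 8 and 4 came out the same with the peak midpoint required in the span and with spans extended by 2 kb. Leaving out peaks touching another coding gene did not change them either. Leaving out each replicate gave 4 genes hit where series 1 was left and 8 where series 2 was left, against 16.3% and 19.5% of all coding genes. The median covered share was then 0 and 1.98%. The median covered share was 0.991% with all peaks, 0.206% with a minimum score of 20, 0.840% with extended spans, and 0 with a minimum score of 50 or peaks wider than 300 bp. The mean covered share of Ifnar1 was 4.21% with all peaks and 0.584% with a minimum score of 20, and that of Stat3 was 2.00% and 0. The causes were not tested. No paired analysis was possible because the groups compared would be ChIP and input, and the input libraries have no peak list of their own. The unknown depth limits what a gene without a peak can show.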

Other observations

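Among markers of other cells of the thymus, Cd79b and Pax5 of 5 B cell genes had a peak in series 2, over 6.80% and 0.120% of their spans, with scores of 18 and 12, and no B cell gene had one in series 1. Of coding genes near the median length of the B cell list 4.35% were hit in series 1 and 5.46% in series 2. Neither Cd79b, at 3.22 kb, nor Pax5, at 186 kb, is near that length. Of 4 myeloid genes Itgam had 1.76% of its span covered in series 1 and Csf1r 0.872% in series 2, and none was hit in both. Near the median length of that list 16.9% were hit in series 1 and 18.9% in series 2. Of the epithelial markers, Trp63 was hit in series 1 alone, by 2 peaks, and Relb in series 2 alone, by 1. The part of these cells in the peaks of the interferon signalling genes was not tested.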
